A study of Mus musculus with 8 samples.

Results

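The genes described here are 10 genes of protein folding and stress signalling in the endoplasmic reticulum (ER), measured in neutrophils sorted from the mouse spleen. They were taken by symbol, with no threshold on their values. The set holds 7 folding genes (Hspa5, Hsp90b1, Calr, Canx, Pdia3, Pdia4 and Pdia6) and 3 transcription factor genes of the unfolded protein response (Xbp1, Atf4 and Ddit3). In GENCODE M21 the 10 symbols correspond to 11 gene identifiers among the 55414 in the count tables, because Ddit3 has a second, short identifier that was at 0 counts in all 8 libraries. The other 10 identifiers passed the filter on low counts and were tested.

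Neutrophils were compared between 4 WT mice and 4 Cxcr2-/- mice, a line in which the gene of the chemokine receptor CXCR2 is deleted in all tissues and not only in neutrophils. All 8 animals were of FVB background, were 10 weeks old and were housed under SOPF (specific and opportunistic pathogen free) conditions, and the labels give no treatment. Spleen cells were enriched on CD11b beads and then sorted as CD45+ CD11b+ Ly6G+ F4/80- cells, so each library is bulk RNA from a mixture of neutrophil stages. The libraries were depleted of ribosomal RNA before sequencing.

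Proteins that enter the ER are folded by the Hsp70-type chaperone BiP (Hspa5) and the Hsp90-type chaperone GRP94 (Hsp90b1), by the lectin chaperones calreticulin (Calr) and calnexin (Canx), and by the disulfide isomerases ERp57 (Pdia3), ERp72 (Pdia4) and P5 (Pdia6). When unfolded proteins accumulate, the sensors IRE1 (Ern1), PERK (Eif2ak3) and ATF6 start the unfolded protein response: IRE1 splices Xbp1 mRNA, ATF6 is cut to an active factor, and PERK phosphorylates eIF2, which slows translation but favours that of Atf4, a driver of Ddit3 (CHOP). Neutrophil precursors make large amounts of granule proteins in the ER, and mature neutrophils hold little ER.

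Many chaperone genes carry the ER stress response element (ERSE) in their promoter, read here as CCAAT, 9 bases of any kind, then CCACG, on either strand. It is bound by NF-Y at the CCAAT end and by ATF6 at the CCACG end. In the RefSeq promoters (GRCm38.p6, 250 bases before to 50 after each gene's start) 39 of 32851 promoters held it, which is 0.119%. Among them were those of 5 of the 10 genes, namely Hspa5, Hsp90b1, Calr, Canx and Pdia6. They are printed because they are the shared sequence of the set, with the CCAAT and CCACG ends in capitals. Each is read 5′ to 3′ on the strand that gives this order, which is the gene's own strand for Hspa5, Canx, Pdia6 and the farther of the 2 Hsp90b1 elements.
Hspa5 chr2:34772025-34772043: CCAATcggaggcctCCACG
Canx chr11:50325800-50325818: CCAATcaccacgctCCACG
Pdia6 chr12:17266491-17266509: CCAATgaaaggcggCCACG
Hsp90b1 chr10:86705638-86705656: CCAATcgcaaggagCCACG
Hsp90b1 chr10:86705533-86705551: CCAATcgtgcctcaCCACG
Calr chr8:84847075-84847093: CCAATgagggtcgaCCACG
The first base of these elements lay from 65 bases before the RefSeq start in Hspa5 to 212 bases before it in Hsp90b1. The Hspa5 element falls in an exon of 1 of its 6 GENCODE M21 transcripts, which starts farther upstream, and the other 5 elements lie outside the exons of their genes. The 250 bases before the start of Canx (chr11:50325674-50325923, minus strand) show one element in its setting, again with its ends in capitals, beside 2 further CCAAT boxes left in lower case.
Canx promoter: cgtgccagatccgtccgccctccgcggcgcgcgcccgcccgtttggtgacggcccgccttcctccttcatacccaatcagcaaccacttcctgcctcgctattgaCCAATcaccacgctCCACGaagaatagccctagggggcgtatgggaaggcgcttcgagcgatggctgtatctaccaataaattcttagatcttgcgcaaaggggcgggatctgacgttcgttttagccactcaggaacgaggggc

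**Figure D1:**
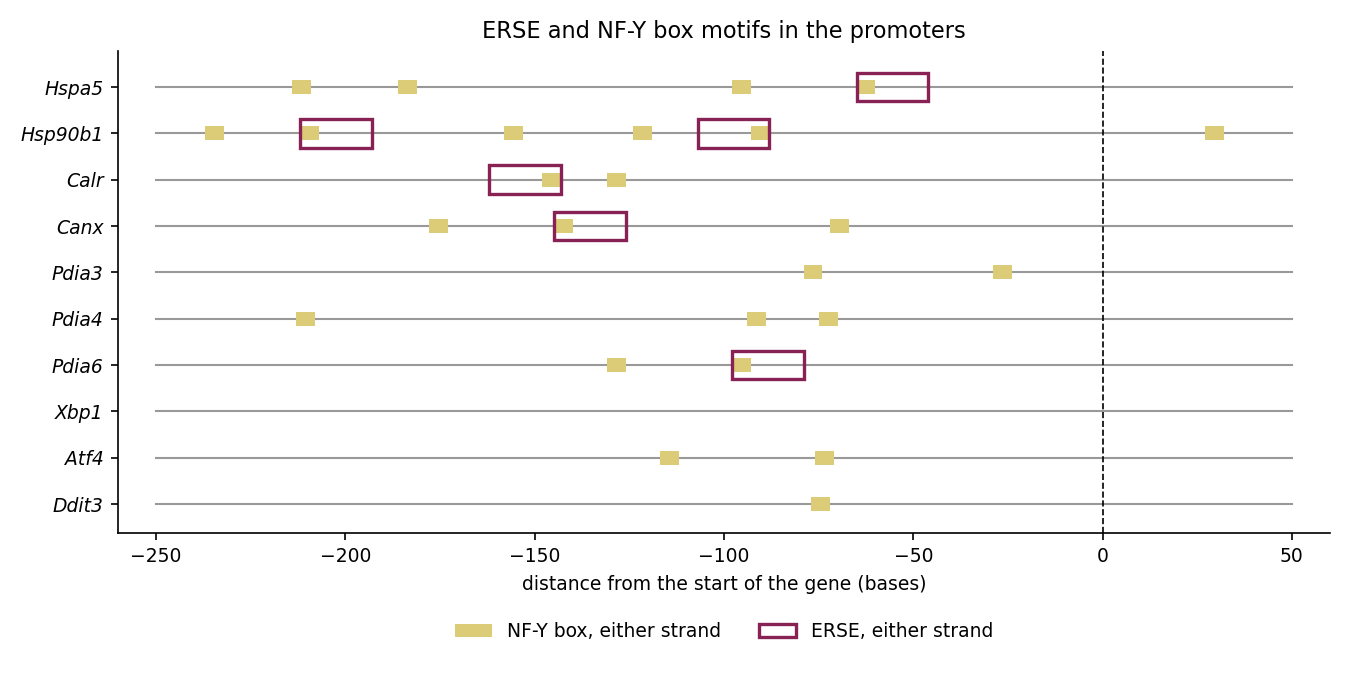
Position of the ERSE (outlined boxes) and of the CCAAT motif bound by NF-Y (filled boxes), on either strand, in the promoters of the 10 genes. The horizontal axis is the distance in bases from the RefSeq start of the gene (dashed line), from 250 before to 50 after it. Hspa5, Hsp90b1, Calr, Canx and Pdia6 hold an ERSE, and Xbp1 alone holds neither motif.

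The libraries held between 34220182 and 46233555 counts on genes. Cxcr2 RNA was at 1719 to 2252 CPM in the WT libraries and at 12.9 to 20.7 CPM in the Cxcr2-/- libraries, which fits the labels. CPM are counts per 1000000 counts on genes, after scaling of the library sizes by TMM. The neutrophil markers were the most abundant of the marker lists, at a summed 31124 to 44885 CPM in WT and 69146 to 84567 CPM in Cxcr2-/-. S100a8 (mean 12054 CPM in WT and 28418.5 in Cxcr2-/-) and S100a9 (13530 and 33865 CPM) had the highest means of that list. Of its 8 genes, 6 were higher in Cxcr2-/- in the edgeR test described below, and Csf3r was lower (6960 and 3334 CPM). Reads that fell in no gene made up 31.4 to 41.5% of the WT reads and 26.7 to 31.9% of the Cxcr2-/- reads, and the 10 most abundant genes took 9.45 to 11.6% and 17.0 to 19.2% of the counts on genes. The part of these differences in the results below was not tested.

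Of the 10 genes, 5 were higher in Cxcr2-/- neutrophils (Hsp90b1, Canx, Pdia3, Pdia6 and Xbp1), 3 were lower (Hspa5, Atf4 and Ddit3) and 2 did not pass the test (Calr and Pdia4). A gene was called at an adjusted p under 0.05 in edgeR's quasi-likelihood test, fitted on all 16778 genes tested with Benjamini-Hochberg adjustment. By the same rule 23.7% of all genes tested were higher and 21.0% were lower, so changes in both directions were common in these cells. The same 8 genes had no overlap of CPM between the groups, against 22.5% of all genes without overlap and higher and 19.1% without overlap and lower. With the further demand of a 1.5-fold change, 1 gene was higher (Pdia3, background 15.7%) and 2 were lower (Hspa5 and Ddit3, background 15.7%). The median log2 fold change of the 10 genes was 0.41, and that of all genes tested was 0.01. In bulk RNA, a lower value from fewer cells of a stage and one from less RNA per cell cannot be told apart.

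**Figure D2:**
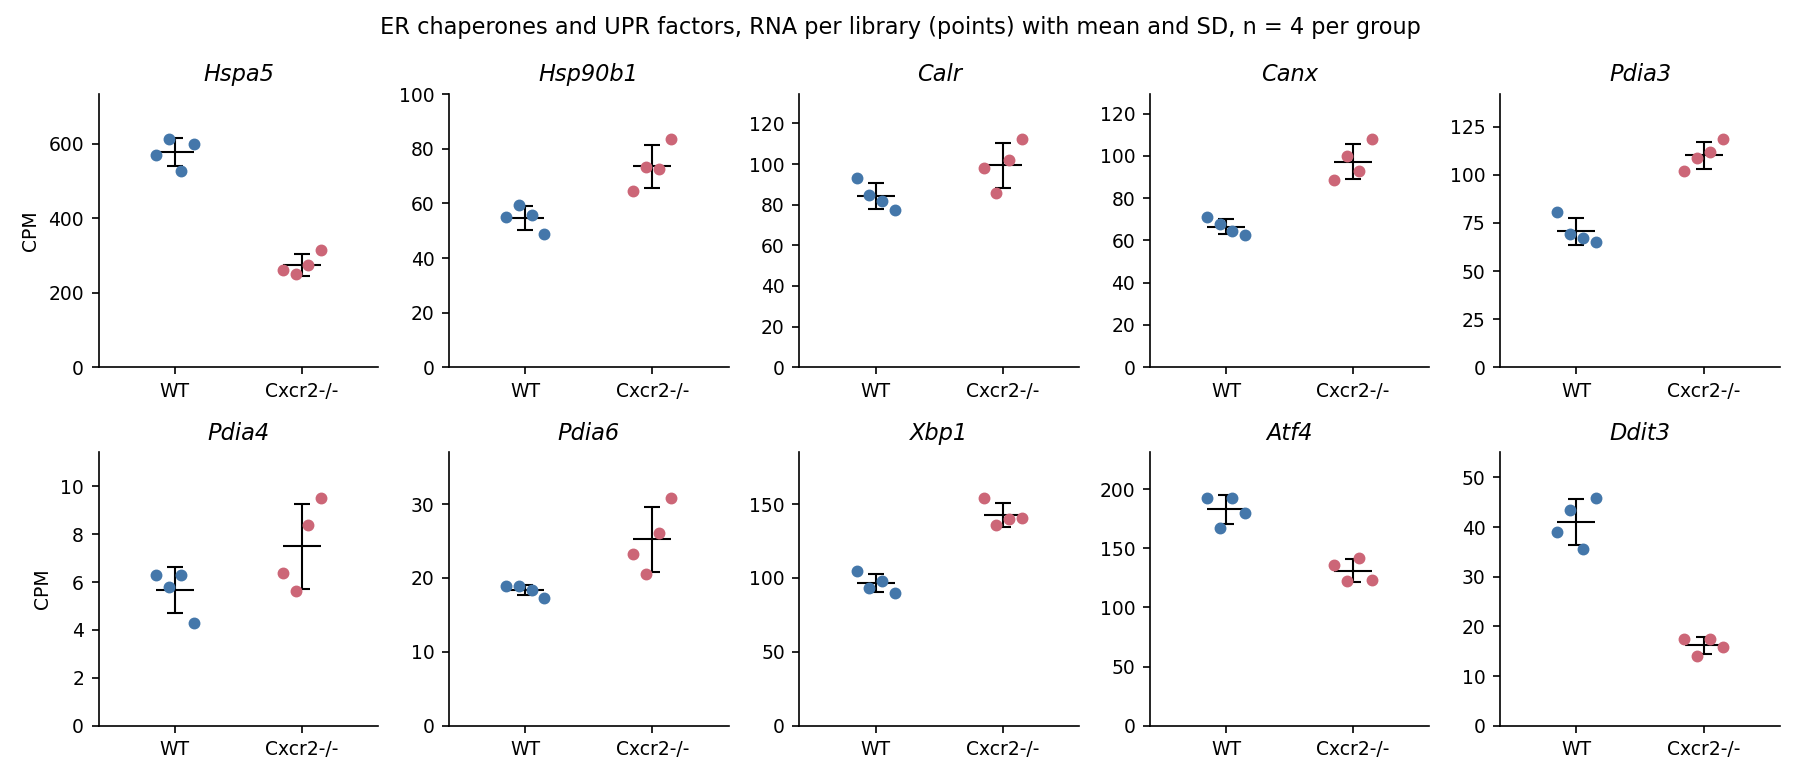
CPM of each of the 10 genes (vertical axes, each from 0) in the 4 WT and 4 Cxcr2-/- libraries. Points are libraries, the long horizontal bar is the mean and the whiskers are the SD. Hspa5, Atf4 and Ddit3 sat lower in all 4 Cxcr2-/- libraries, Hsp90b1, Canx, Pdia3, Pdia6 and Xbp1 sat higher, and Calr and Pdia4 overlapped.

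Hspa5, which encodes BiP, the main ER Hsp70 and the protein that holds the stress sensors inactive, had the highest CPM of the 10 genes and fell in Cxcr2-/- neutrophils. Its RNA was at 571, 613, 526 and 599 CPM in WT 1 to 4 and at 259.9, 249, 274 and 315 CPM in Cxcr2-/- 1 to 4. Every Cxcr2-/- library lay far below every WT library. The means were 577 ± 38.2 and 274 ± 28.8 CPM (SD, n = 4 each), a 2.10-fold lower level, with a log2 fold change of -1.07 (SE 0.10, edgeR adjusted p = 5.46e-06).

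Hsp90b1, which encodes GRP94, the ER Hsp90 that folds integrins and Toll-like receptors, moved the other way. It was at 55.0, 59.3, 55.8 and 48.8 CPM in the WT libraries and at 64.5, 73.5, 72.7 and 83.6 CPM in the Cxcr2-/- libraries. The groups did not overlap, but the gap between WT 2 and Cxcr2-/- 1 was small. Its log2 fold change was 0.43 (SE 0.10, edgeR adjusted p = 0.00363). On the GENCODE M21 exons, 415 of its 4032 exon bases are shared with 1810014B01Rik, a pseudogene on the opposite strand, and the strand setting of the counting is not given in the sources used here.

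The lectin chaperones, which hold glycoproteins while they fold, gave 1 call out of 2 genes. Canx, the membrane-bound calnexin, was at 70.9, 67.9, 64.7 and 62.6 CPM in WT and at 88.7, 99.9, 92.8 and 108 CPM in Cxcr2-/-. All 4 Cxcr2-/- libraries were above all 4 WT libraries, with a log2 fold change of 0.55 (SE 0.09, edgeR adjusted p = 3.14e-04). Calr, the soluble calreticulin, was at 92.9, 84.9, 82.0 and 77.5 CPM in WT and at 98.1, 85.5, 102 and 112 CPM in Cxcr2-/-, and Cxcr2-/- 2 lay inside the WT range. Its log2 fold change of 0.24 (SE 0.10, 95% interval 0.04 to 0.43) did not pass (edgeR adjusted p = 0.0701). Without WT 1 the adjusted p for Calr was 0.0479 and without Cxcr2-/- 2 it was 0.0264, both with Calr higher in Cxcr2-/-.

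Of the disulfide isomerases, Pdia3 and Pdia6 rose and Pdia4 did not pass. Pdia3 works with calnexin and calreticulin on glycoproteins and also serves in the loading of MHC class I. Its RNA was at 80.9, 69.5, 67.4 and 65.2 CPM in WT and at 102, 109, 112 and 119 CPM in Cxcr2-/-, with every Cxcr2-/- library above every WT library. At 1.56-fold it had the largest rise of the 10 genes (log2 fold change 0.64, SE 0.09, edgeR adjusted p = 1.42e-04). Pdia6, which is known to damp IRE1 and PERK signalling, was at 18.9, 18.8, 18.4 and 17.3 CPM in WT and at 23.3, 20.6, 26.1 and 30.9 CPM in Cxcr2-/-. The WT libraries were tightly grouped, the Cxcr2-/- libraries were spread above them, and the log2 fold change was 0.46 (SE 0.12, edgeR adjusted p = 0.00889). With scaling by total counts alone the adjusted p of Pdia6 was 0.0504. Pdia4, a client-binding isomerase found in a complex with BiP, was the least abundant of the set, with 148 to 392 counts per library. It was at 6.30, 5.81, 6.31 and 4.28 CPM in WT and at 6.40, 5.64, 8.39 and 9.53 CPM in Cxcr2-/-, so the groups overlapped. Its log2 fold change was 0.40 (SE 0.19, 95% interval 0.02 to 0.78, edgeR adjusted p = 0.113), and without Cxcr2-/- 2 the adjusted p was 0.0493.

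The fall of Hspa5 beside the rises of Hsp90b1, Canx, Pdia3 and Pdia6 changed the make-up of the folding RNA. To compare genes, CPM were divided by the length of all exons in GENCODE M21, giving CPM per kb of exon. On this scale Hspa5 made up 58.8, 62.1, 59.4 and 64.1% of the summed RNA of the 7 folding genes in WT 1 to 4, and 35.8, 34.5, 35.2 and 35.9% in Cxcr2-/- 1 to 4. The groups lay far apart and the Cxcr2-/- libraries differed little among themselves. The mean share was 61.1 ± 2.45% in WT and 35.4 ± 0.641% in Cxcr2-/- (SD, n = 4 each). The share was chosen as a measure after the values of the genes were seen, and is given as a description with no test. The other 6 genes together were at 79.5 to 94.5 CPM per kb in WT and at 110.3 to 133 in Cxcr2-/-. The 7 genes in sum were at 209.6 to 233 CPM per kb in WT and at 171 to 207 in Cxcr2-/-, which also did not overlap. The ratio of Hspa5 to Hsp90b1 per kb was 10.1 ± 1.15 in WT and 3.56 ± 0.251 in Cxcr2-/-, and that of Hspa5 to Pdia3 was 6.10 ± 0.724 and 1.85 ± 0.115 (mean ± SD of the libraries, n = 4).

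**Figure D3:**
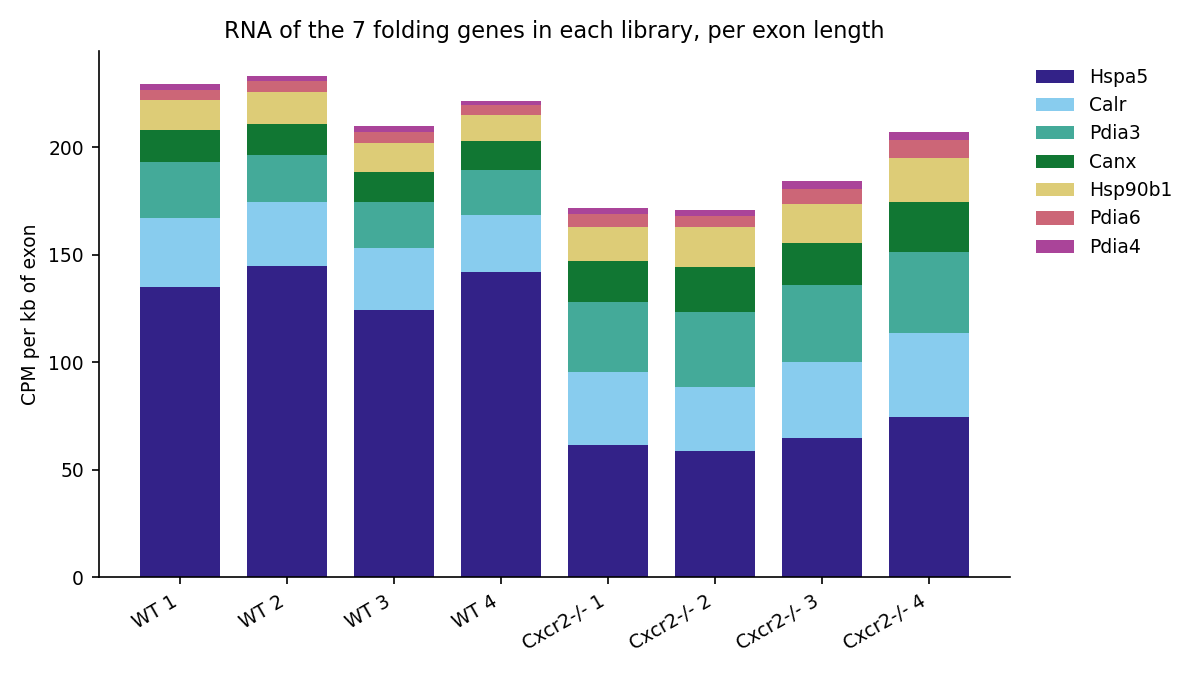
Summed RNA of the 7 folding genes in each library, in CPM per kb of exon, stacked by gene with Hspa5 at the bottom. Hspa5 filled 58.8 to 64.1% of the bars in WT and 34.5 to 35.9% in Cxcr2-/-, while the summed height was lower in all 4 Cxcr2-/- libraries.

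In WT the order of the levels per kb of exon began with Hspa5 at 136 ± 9.03 and Atf4 at 77.6 ± 5.19 CPM per kb (SD, n = 4). Xbp1 (29.7 ± 1.97) and Calr (29.3 ± 2.26) followed and overlapped each other, as did Ddit3 (24.0 ± 2.67) and Pdia3 (22.5 ± 2.23), and then Canx (14.2 ± 0.780) and Hsp90b1 (13.6 ± 1.09). Pdia6 (4.90 ± 0.192) and Pdia4 (2.37 ± 0.399) came last and stood apart from their neighbours. In Cxcr2-/- the level of Hspa5 (64.9 ± 6.82 CPM per kb) overlapped that of Atf4 (55.6 ± 4.08), and Xbp1 (43.9 ± 2.48) stood apart as the next. Pdia3 (35.1 ± 2.23) overlapped Calr (34.5 ± 3.83), and Canx (20.7 ± 1.80) overlapped Hsp90b1 (18.2 ± 1.94). Ddit3 (9.45 ± 0.975 CPM per kb), above Canx and Hsp90b1 in WT, was below both in Cxcr2-/- and overlapped Pdia6 (6.73 ± 1.18), with Pdia4 (3.12 ± 0.744) again the lowest. These levels are a description on exon length and were not tested between genes.

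Of the transcription factor genes, Xbp1 rose while Atf4 and Ddit3 fell. Xbp1, whose spliced mRNA encodes the factor that expands the ER, was at 105, 93.5, 97.8 and 90.1 CPM in WT and at 154, 136, 139.7 and 141 CPM in Cxcr2-/-. The lowest Cxcr2-/- library was well above the highest WT library, and the log2 fold change was 0.56 (SE 0.09, edgeR adjusted p = 2.05e-04). Counts per gene do not separate spliced from unspliced Xbp1 mRNA. Atf4, the factor translated when eIF2 is phosphorylated, was at 193, 167, 192 and 179.8 CPM in WT and at 136, 122, 142 and 124 CPM in Cxcr2-/-. All 4 Cxcr2-/- libraries were below all 4 WT libraries (log2 fold change -0.48, SE 0.09, edgeR adjusted p = 9.60e-04). Ddit3, which encodes CHOP, a factor linked to cell death in prolonged ER stress, was at 39.1, 43.5, 35.7 and 45.9 CPM in WT and at 17.5, 14.0, 17.5 and 15.8 CPM in Cxcr2-/-. The groups were far apart, with a 2.54-fold lower level in Cxcr2-/-, the largest change of the 10 genes (log2 fold change -1.34, SE 0.11, edgeR adjusted p = 1.83e-06). Ddit3 shares 68 of its 1713 exon bases with Mars on the opposite strand.

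Among the 11 genes of the sensors and their transcription factors, 5 were higher and 1 was lower, with a median log2 fold change of 0.10. The background for this list and those below is the 23.7% higher and 21.0% lower of all genes tested. The gene that fell was Eif2ak3, which encodes PERK. It was at 195, 156, 166 and 216 CPM in WT and at 86.9, 94.5, 77.8 and 84.2 CPM in Cxcr2-/-, with no overlap (log2 fold change -1.09, SE 0.11, edgeR adjusted p = 1.05e-05). The genes of the other sensors did not pass. Ern1, which encodes IRE1, was at 74.9 to 90.7 CPM in WT and 67.8 to 76.8 CPM in Cxcr2-/- (log2 fold change -0.19, edgeR adjusted p = 0.102), and Atf6 was at 93.9 to 98.6 and 95.2 to 108 CPM (log2 fold change 0.10, edgeR adjusted p = 0.324). Both pairs of ranges overlapped, and Ern1 passed as lower under 4 of 17 alternative settings, upper-quartile and total-count scaling among them. A further fit, with a covariate for early precursor markers (described with those markers), gave Ern1 a log2 fold change of 0.20 (edgeR adjusted p = 0.553). Beside Xbp1, the genes that rose were Atf6b, a relative of Atf6, at 46.1 ± 4.97 and 59.2 ± 4.98 CPM, Mbtps2, a protease that cuts ATF6, at 5.36 ± 0.481 and 7.94 ± 0.338 CPM, Creb3l2, an ER-bound factor, at 3.47 ± 0.513 and 6.72 ± 0.362 CPM, and Creb3l1 (mean ± SD, n = 4, WT first). With upper-quartile scaling the adjusted p of Atf6b in the edgeR fit was 0.0607. Creb3l1 was close to absent, at 0.181 to 0.442 CPM in WT and 0.243 to 1.17 CPM in Cxcr2-/-, and its adjusted p ran from 0.00532 to 0.0945 over 16 alternative settings without the precursor covariate. It did not pass in the edgeR fits without WT 2 (adjusted p = 0.0776), WT 3 (0.0703) or WT 4 (0.0610), or without Cxcr2-/- 1 (0.0630) or 3 (0.0945). Mbtps1 (42.2 ± 2.58 and 41.7 ± 2.35 CPM), Creb3 (40.0 ± 2.18 and 37.3 ± 3.17 CPM) and Creb3l4 (0.481 ± 0.291 and 0.368 ± 0.102 CPM) did not pass. Over the scaling alternatives the median of this list ranged from -0.02 to 0.10, so its sign depended on the scaling.

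**Figure D4:**
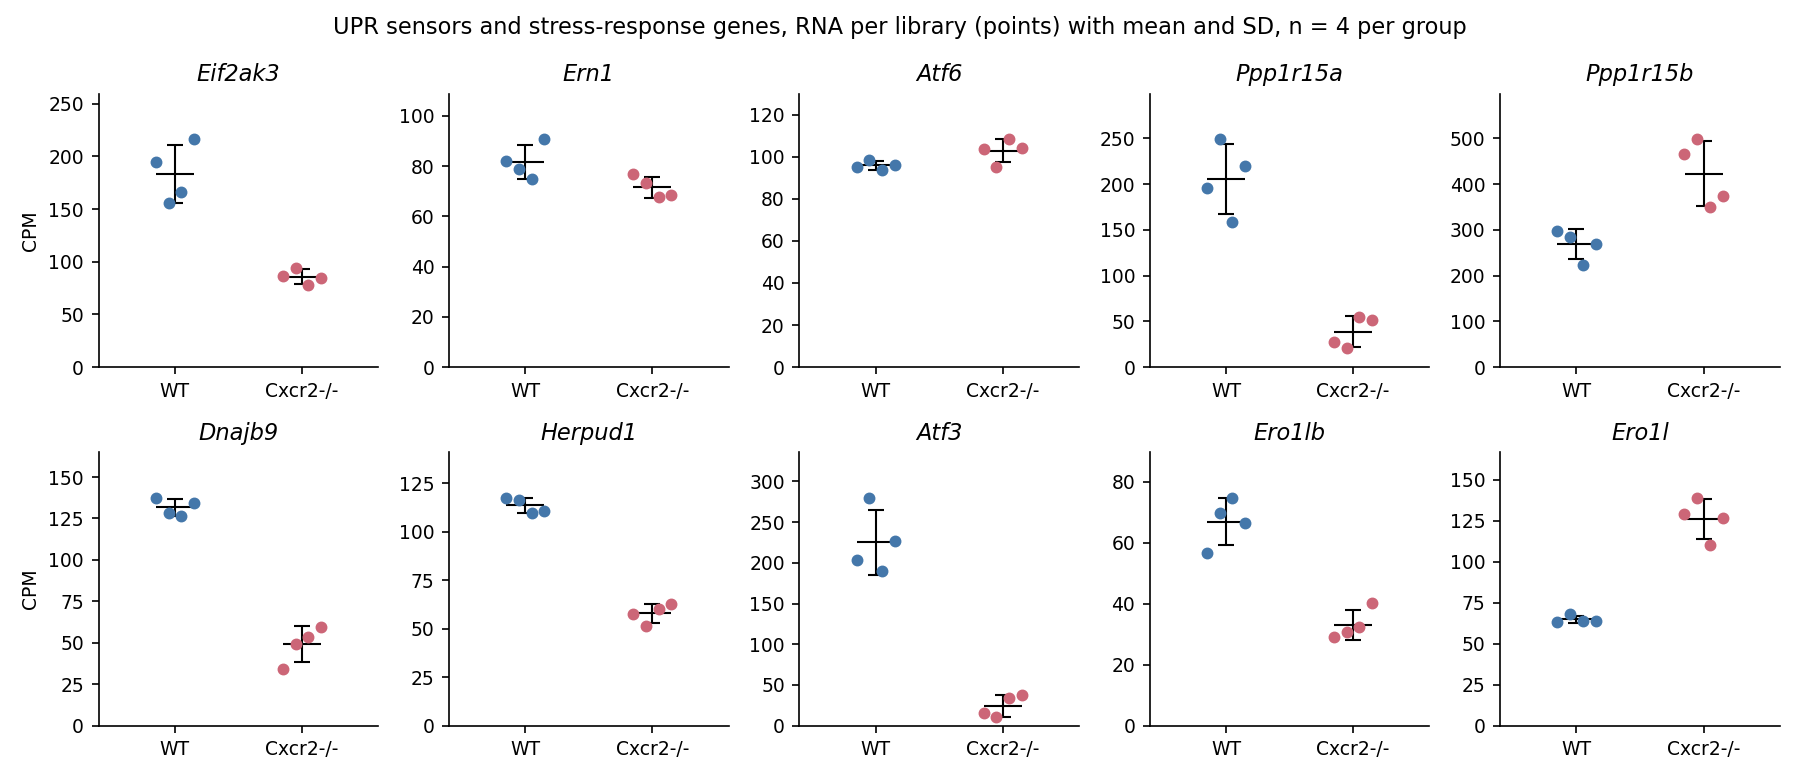
CPM of sensor genes and of stress-response genes (vertical axes, each from 0) in the 4 WT and 4 Cxcr2-/- libraries, drawn as points with the mean and the SD. Eif2ak3, Ppp1r15a, Dnajb9, Herpud1, Atf3 and Ero1lb were lower without overlap in Cxcr2-/-, Ppp1r15b and Ero1l were higher without overlap, and Ern1 and Atf6 overlapped.

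The kinases that phosphorylate eIF2 and the phosphatase that reverses it gave 6 higher and 2 lower of 10 genes. The lower genes were Eif2ak3 and Ppp1r15a. Ppp1r15a encodes GADD34, the stress-induced partner of the phosphatase and a target of ATF4 and CHOP, and was at 195, 249, 159 and 219.6 CPM in WT and at 27.0, 21.1, 54.5 and 51.7 CPM in Cxcr2-/-. The fall was large in all 4 Cxcr2-/- libraries, of which 1 and 2 were the lowest (log2 fold change -2.41, SE 0.27, edgeR adjusted p = 1.86e-05). Its constitutive counterpart Ppp1r15b, which encodes CReP, was at 298, 285, 223 and 269 CPM in WT and at 467, 498, 350.3 and 374 CPM in Cxcr2-/-, and rose (log2 fold change 0.65, SE 0.13, edgeR adjusted p = 0.00164). The ratio of the CPM of Ppp1r15a to Ppp1r15b was 0.765 ± 0.0986 in WT and 0.0985 ± 0.0566 in Cxcr2-/- (mean ± SD, n = 4), without overlap. The heme-regulated kinase gene Eif2ak1 (48.7 ± 3.80 and 65.3 ± 4.33 CPM), the double-stranded RNA kinase gene Eif2ak2 (4.20 to 5.44 and 8.34 to 10.5 CPM) and Eif2s1, the eIF2 subunit that all these kinases modify (6.38 ± 0.148 and 12.4 ± 1.66 CPM), rose as well. The catalytic phosphatase genes Ppp1ca (172 ± 27.5 and 248 ± 15.9 CPM) and Ppp1cc (79.0 ± 7.48 and 101 ± 10.1 CPM) were also higher, where the edgeR adjusted p of Ppp1cc was 0.0603 with upper-quartile scaling, 0.0503 without WT 2 and 0.0512 without WT 3. The amino acid-sensing kinase gene Eif2ak4 (8.88 ± 1.61 and 6.92 ± 1.26 CPM) and Ppp1cb (361 ± 24.9 and 431 ± 59.5 CPM) did not pass. Eif2ak4 passed as lower with upper-quartile scaling (edgeR adjusted p = 0.0428) and without Cxcr2-/- 4 (0.0346), and Ppp1cb passed as higher without Cxcr2-/- 1 (0.0429).

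In the list of 27 tested ATF4 and CHOP targets, which includes Atf4 and Ddit3, 7 genes were higher (25.9%) and 12 were lower (44.4%). The shares of all genes tested were 23.7% and 21.0%. The median log2 fold change of the list was -0.32. The largest falls were those of Atf3, a stress-induced repressor, of Slc7a11, the cystine importer, and of Ppp1r15a. Atf3 was at 203, 280.1, 189.9 and 227 CPM in WT and at 15.2, 10.0, 34.3 and 37.4 CPM in Cxcr2-/-, and Slc7a11 at 417, 656, 537 and 609.9 and 58.2, 68.5, 77.7 and 87.7 CPM. Neither gene overlapped between the groups, and the log2 fold changes were -3.21 (edgeR adjusted p = 1.36e-05) and -2.93 (edgeR adjusted p = 1.12e-07). Not all targets moved this way. Slc7a5, which imports large neutral amino acids, went from 8.39 ± 0.286 to 30.1 ± 6.01 CPM (log2 fold change 1.84, edgeR adjusted p = 7.95e-07), Psat1, an enzyme of serine synthesis, from 1.08 ± 0.240 to 3.51 ± 1.15 CPM, and Nupr1, a stress-induced chromatin protein, from 1.71 ± 0.310 to 4.53 ± 1.26 CPM. The aminoacyl-tRNA synthetases, several of which ATF4 is known to drive, were mostly higher: 13 of 20 rose, 1 fell and the median log2 fold change was 0.50. Total-count and upper-quartile scaling each gave 9 higher and 1 lower, and the fit with the precursor covariate gave 1 higher and 1 lower. Aars (11.3 ± 0.752 and 23.7 ± 4.19 CPM), Rars (12.4 ± 1.37 and 24.1 ± 2.13 CPM) and Farsb (1.53 ± 0.436 and 2.98 ± 0.675 CPM) had the largest rises, and Sars (37.6 ± 2.80 and 28.0 ± 2.59 CPM) was the gene that fell.

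The chaperone list and the oxidative folding list, members included, held more rises than falls without the precursor covariate. With it they held more falls than rises at the adjusted threshold. The precursor covariate and the genotype cannot be told apart in these libraries, so no conclusion is drawn from that change. Calls over all genes were fewer with that covariate too. They went from 3969 to 1856 higher and from 3526 to 1635 lower in edgeR. Of 20 tested chaperones and co-chaperones, Hspa5 and Hsp90b1 included, 8 were higher and 3 were lower, with a median log2 fold change of 0.25, against 0 higher and 2 lower (edgeR adjusted p) with the covariate (2 and 2 at an unadjusted p under 0.05). Dnajb9, the BiP co-chaperone that represses IRE1, fell most, from 138, 128, 127 and 134 CPM in WT to 34.5, 49.6, 53.8 and 59.3 CPM in Cxcr2-/- (log2 fold change -1.42, SE 0.14, edgeR adjusted p = 6.22e-06). Cnpy3, which serves with GRP94 in the folding of Toll-like receptors, fell from 60.7 ± 4.52 to 41.8 ± 3.49 CPM. Mesd (2.68 ± 0.458 and 5.05 ± 0.558 CPM), a chaperone of LDL receptor relatives, Manf (9.16 ± 0.839 and 15.9 ± 2.02 CPM), a BiP cofactor, and Cnpy4 (3.07 ± 0.724 and 5.26 ± 0.728 CPM) had the largest rises. In the PDI and oxidative folding list, with Pdia3, Pdia4 and Pdia6, 7 of 18 genes were higher and 2 were lower, with a median of 0.31, against 1 higher, 5 lower and a median of -0.16 with the covariate. Here the oxidases that recharge the isomerases went in opposite directions. Ero1l was at 63.4, 68.3, 64.2 and 63.9 CPM in WT and at 129, 139, 110.0 and 127 CPM in Cxcr2-/-, and Ero1lb was at 56.7, 69.7, 74.8 and 66.3 and 29.1, 30.8, 32.3 and 40.1 CPM. Neither overlapped between groups (log2 fold changes 0.96 and -1.02, edgeR adjusted p = 4.61e-06 and 2.56e-05), and the ratio of the CPM of Ero1lb to Ero1l was 1.03 ± 0.111 in WT and 0.264 ± 0.0481 in Cxcr2-/-. Qsox1, another thiol oxidase, rose from 224 ± 26.6 to 413 ± 30.3 CPM and Tmx2 from 2.01 ± 0.290 to 5.40 ± 0.444 CPM.

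**Figure D5:**
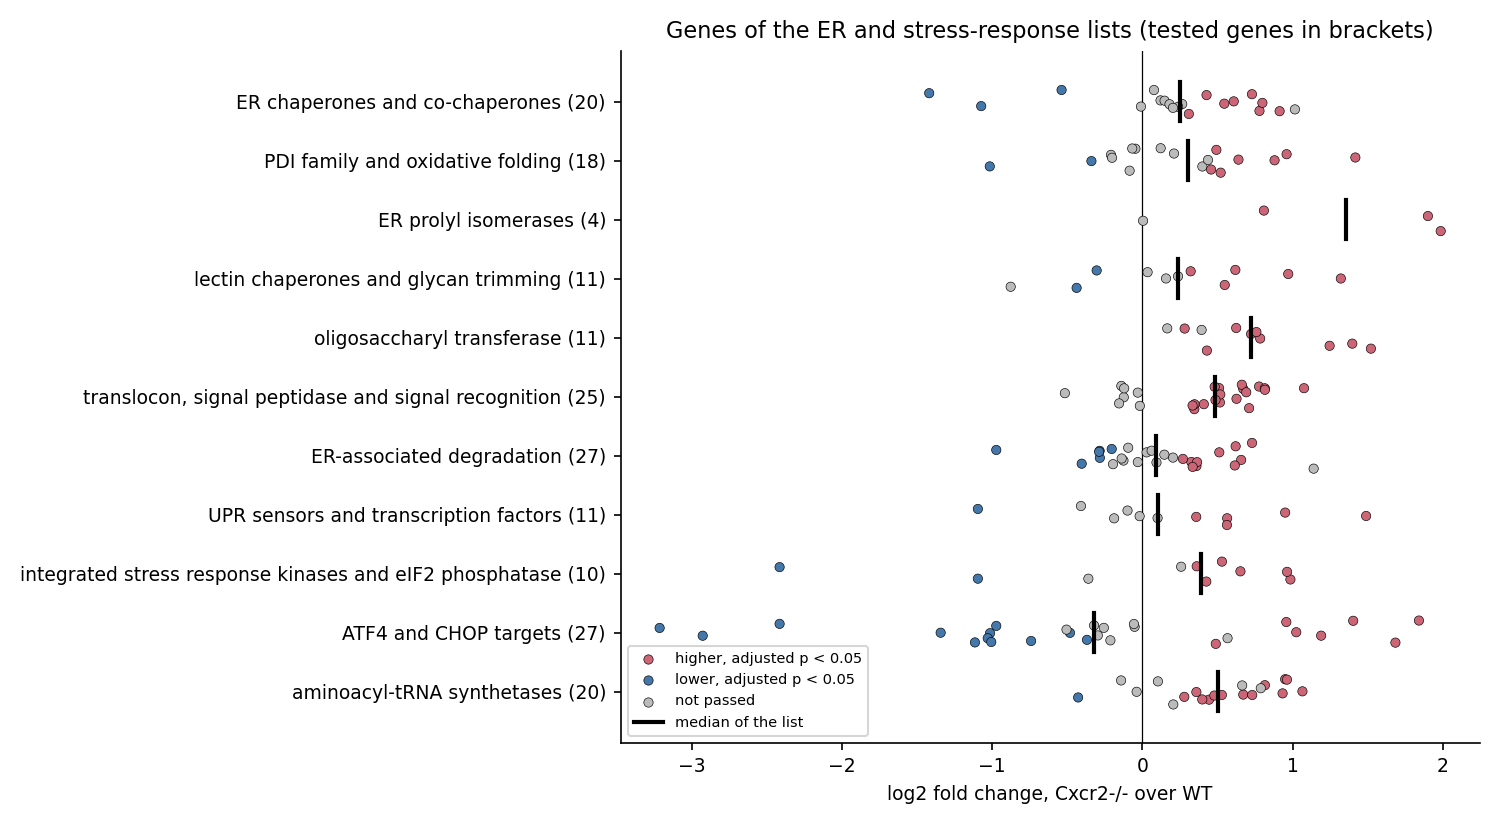
Log2 fold change (Cxcr2-/- over WT, horizontal axis) of each tested gene of the ER and stress-response lists, with the number of genes tested in brackets. Red points were higher and blue points lower at an edgeR adjusted p under 0.05, grey points did not pass, and black bars are the medians. The oligosaccharyl transferase and translocon lists held 0 lower genes with the TMM scaling shown (1 lower translocon gene with total-count scaling, on protein-coding genes only or with the precursor covariate, and 2 with upper-quartile scaling), and the ATF4 and CHOP targets held the largest falls.

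Genes that bring proteins into the ER and attach their glycans were mostly higher, though few passed once the precursor covariate was in the fit. Fewer of all genes passed in that fit as well. Of 25 translocon, signal peptidase and signal recognition genes, 18 were higher and 0 were lower in the edgeR test (0 lower also at an unadjusted p under 0.05 and in DESeq2), with a median log2 fold change of 0.49. Scaling by total counts and the fit on protein-coding genes each gave 1 lower gene, upper-quartile scaling gave 2, and the precursor covariate gave 2 higher and 1 lower. Of 11 oligosaccharyl transferase genes, 9 were higher and 0 were lower in the edgeR test, with a median of 0.72, and 0 were lower at an unadjusted p under 0.05, in DESeq2 and under those scalings too. With the precursor covariate 2 of the 11 were higher and 0 lower in edgeR (3 and 0 at an unadjusted p under 0.05). Ssr2, a translocon subunit, went from 8.65 ± 1.30 to 18.2 ± 2.39 CPM, and Rpn2, a transferase subunit, from 17.8 ± 2.12 to 46.8 ± 4.41 CPM, with log2 fold changes of 1.08 (edgeR adjusted p = 5.77e-05) and 1.40 (edgeR adjusted p = 1.23e-06). Of the 4 tested ER prolyl isomerases 3 were higher, among them Ppib (11.8 to 13.8 and 20.7 to 24.5 CPM) and Fkbp2 (1.16 ± 0.145 and 4.59 ± 0.903 CPM). In the lectin and glycan-trimming list, with Canx and Calr, 5 of 11 genes were higher and 2 lower, and Lman1, the cargo receptor that takes glycoproteins out of the ER, rose from 5.11 ± 0.400 to 12.8 ± 1.03 CPM. The ER-associated degradation genes, which remove misfolded proteins, were divided. With TMM 10 of 27 were higher and 6 lower, against 4 higher and 8 lower with upper-quartile scaling and 5 and 7 with total-count scaling. Over all genes, TMM gave 3969 higher and 3526 lower, upper-quartile scaling 3076 and 4391, and total-count scaling 3248 and 4080. Herpud1, the stress-induced scaffold of this machinery, fell from 118, 116, 109.5 and 111 CPM to 57.5, 51.3, 60.3 and 62.5 CPM (log2 fold change -0.97, SE 0.09, edgeR adjusted p = 2.98e-06). Over all lists, 181 genes were tested, of which 91 were higher and 26 lower, with a median log2 fold change of 0.35. Of all genes tested, 23.7% were higher and 21.0% lower, with a median of 0.01.

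Genes with an ERSE were called in both directions, at shares near those of all genes tested. The ERSE carriers among the 10 genes included Hspa5, which fell, Hsp90b1, Canx and Pdia6, which rose, and Calr, which did not pass. Across the series, 19 tested genes held an ERSE, of which 4 were higher and 4 lower, or 21.1% each way, near the 23.7% higher and 21.0% lower of all genes tested. The higher genes were Hsp90b1, Canx, Pdia6 and Dnajc3, and the lower were Hspa5, Ero1lb, Calr4 and Ptgdr2, where Dnajc3, Calr4 and Ptgdr2 are named after their values were seen. ERSE-II, read as ATTGG, 1 base of any kind, then CCACG, was in 12 promoters (0.0365%) and in none of the 10 genes. Of the pathway genes it was found for Herpud1, which fell, and for Dnajb11 and Krtcap2, which rose (named for the motif). Of all 9 tested genes with ERSE-II, 2 were higher and 3 lower. Herpud1 also holds the core of the CCAAT-enhancer-binding protein and ATF response element, at which ATF4 and CHOP bind.
Herpud1 ERSE-II chr8:94386377-94386387: ATTGGgCCACG
Herpud1 response element core chr8:94386317-94386324: TTGCATCA
That core was in 294 promoters (0.895%) and in none of the 10 genes. It was in 11 pathway genes, of which 3 were higher (Nupr1, Aars and Cnpy2) and 4 were lower (Atf3, Slc7a11, Chac1 and Herpud1). Of all 83 tested genes with that core, 22.9% were higher and 30.1% lower, against 23.7% and 21.0% of all genes tested. Cnpy2 and Chac1 are named here for the motif. The core of the unfolded protein response element (TGACGTGG) was in 222 promoters (0.676%) and in none of the 10 genes. It was in 4 pathway genes, named here for the motif, of which 3 were higher (Txndc11, Ube2j1 and Vcp) and Txndc5 did not pass. Of all 106 tested genes with this core, 21.7% were higher and 20.8% lower, near the shares of all genes tested. CCAAT alone, which overlaps the ERSE, was in 37.4% of all promoters and in 9 of the 10 genes, all but Xbp1. These matches describe the letters of a fixed window only.

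The Cxcr2-/- libraries also had more RNA of the markers of early neutrophil precursors. The 8 markers of that list (azurophil granule and proliferation genes such as Mpo, Elane and Mki67) were all higher, at a summed 281 to 338 CPM in WT and 906 to 1261 CPM in Cxcr2-/-, and the 6 secondary granule genes were all higher, at 23186 to 28218 and 52846 to 75822 CPM. Within Cxcr2-/-, the summed precursor level was highest in library 4, in which each of the 7 folding genes also had its highest Cxcr2-/- CPM. The summed B cell and plasma cell markers were highest in that Cxcr2-/- library too, at 52.4 and 125 CPM. Xbp1, in contrast, was highest in library 1 and Atf4 and Ddit3 in library 3. The part of each cell type in these levels was not tested. In an edgeR fit with the mean log2 (CPM + 1) of the 8 precursor markers as a covariate, Hspa5 (log2 fold change -1.39, adjusted p = 0.00304) and Ddit3 (-1.20, adjusted p = 0.0191) stayed lower. Atf4 (-0.52, adjusted p = 0.151), Xbp1 (0.61, adjusted p = 0.0783), Canx (0.30, adjusted p = 0.379) and Pdia3 (0.38, adjusted p = 0.291) kept their sign without passing the edgeR test. Hsp90b1 (-0.048, edgeR adjusted p = 0.908) and Pdia6 (-0.30, edgeR adjusted p = 0.460) changed sign and did not pass, and neither did Calr (-0.20, edgeR adjusted p = 0.609) or Pdia4 (-0.90, edgeR adjusted p = 0.136). Ppp1r15a (-4.16, edgeR adjusted p = 0.000984), Atf3 (-5.79, 0.000287), Slc7a11 (-3.58, 0.000201), Dnajb9 (-2.19, 0.000870), Ero1lb (-1.71, 0.000929) and Herpud1 (-1.25, 0.00221) stayed lower in this fit, and Ppp1r15b (1.49, 0.00218) and Ero1l (1.19, 0.00347) stayed higher. Eif2ak3 (-0.65, edgeR adjusted p = 0.126) did not pass. Of the lists not yet given with this covariate, the sensors and their factors had 0 higher and 0 lower (edgeR adjusted p; 3 and 1 at an unadjusted p under 0.05), the eIF2 kinases and phosphatase 2 higher and 1 lower, the ATF4 and CHOP targets 3 and 8, the ER-associated degradation genes 4 and 1, the lectin and glycan-trimming genes 1 and 0 (4 and 0 unadjusted), and the prolyl isomerases 1 and 0 (2 and 0 unadjusted). The precursor score ran from -1.72 to -0.90 in WT and from 0.70 to 2.22 in Cxcr2-/-, so within these 8 libraries the score and the genotype cannot be told apart.

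Plasma cells and B cells, which are rich in Xbp1 and in ER chaperones, had their markers at low levels in the sorted cells. The 10 B cell markers summed to 49.5 to 104 CPM in WT and 19.8 to 52.4 CPM in Cxcr2-/-, and 8 of them were lower and 0 higher in the edgeR test (0 higher also at an unadjusted p under 0.05). Of 17 plasma cell markers, 15 were tested, 6 were higher and 4 were lower, and their sum was 84.6 to 143 CPM in WT and 72.6 to 125 CPM in Cxcr2-/-. By mean CPM (WT first), the higher genes were Ighg2b (0.341 and 4.05), Ighg2c (0 and 0.925), Ighg1 (1.91 and 7.33), Igha (4.85 and 11.7), Jchain (1.59 and 4.35) and Tnfrsf13b (5.73 and 15.2). The lower genes were Ighm (61.6 and 23.9), Ighg3 (2.07 and 0.830), Prdm1 (3.62 and 1.76) and Slamf7 (10.5 and 6.15). Ighm had the highest mean of the list in both groups. Tnfrsf17 was at 0 in 6 of 8 libraries. Mzb1, a plasma cell partner of GRP94, was at 0.0201 to 0.287 CPM in WT and 0.0758 to 0.280 CPM in Cxcr2-/-. With the B and plasma cell markers as a covariate in the edgeR fit, the same 8 genes kept their calls and Calr (log2 fold change 0.31, adjusted p = 0.00894) and Pdia4 (0.55, adjusted p = 0.00782) passed as higher. That covariate was a single mean over markers that moved in opposite directions, so it does not follow the rising plasma cell genes by themselves. Of the other cell types, the summed markers were at 760 to 886 CPM in WT and 869.7 to 1042 CPM in Cxcr2-/- for monocytes and macrophages, 100.2 to 119 and 98.5 to 143 CPM for T and NK cells, and 75.6 to 89.3 and 59.5 to 102 CPM for eosinophils, basophils and mast cells. They were at 11.2 to 35.5 and 6.61 to 11.2 CPM for dendritic cells and 19.8 to 28.4 and 18.7 to 36.1 CPM for erythroid cells. For platelets they were at 15.3 to 20.8 and 10.3 to 15.4 CPM. Similar sums held opposite changes. The monocyte and macrophage list had 4 genes higher and 2 lower in the edgeR test, such as Ly6c2 (mean 239 CPM in WT and 627 in Cxcr2-/-) and Csf1r (442 and 232). The T and NK list had 1 higher and 1 lower, and Cd3d (99.1 and 108 CPM) made up most of its sum. The eosinophil, basophil and mast cell list had 3 higher and 2 lower. The part of all these cells in the results was not tested.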

How the data were processed

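Counts per gene were deposited by the authors, 1 table per library. They sequenced ribosome-depleted libraries from a directional kit on an Illumina NovaSeq, checked reads with FastQC, trimmed them, and used STAR (mm10) for alignment and HTSeq for counting, whose strand setting, gene annotation and version are not given in the sources used here. Groups were taken from the sample titles. Rows of HTSeq totals were left out of library sizes, where reads in no gene made up 26.7 to 41.5% of a table's total, ambiguous reads 2.58 to 3.12% and reads aligned to several places 8.23 to 13.3%. Of the 55414 gene identifiers, 52081 matched GENCODE M21, and 35 had the same version number.

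Counts were tested with edgeR 4.0.16 (R 4.3.3, TMM, filterByExpr, quasi-likelihood, all 8 libraries, Benjamini-Hochberg over 16778 genes, threshold 0.05). The fit was tested on simulated data with 200 changed genes, rises and falls in equal number, and a single dispersion for all genes. Far fewer genes changed there than were called in these data, so that test does not bear on the choice of scaling. Alternatives were DESeq2 1.42.0, RLE, upper-quartile and total-count scaling, other filters on low counts, protein-coding genes only, marker covariates, a replicate block and each library left out. CPM are on TMM library sizes, intervals are 1.96 SE, and errors are the SD of 4 libraries. Replicates differed by more than counting noise, so no library was a duplicate of another.

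The members, gene lists and tests were chosen with earlier results of these data known. Named genes are the 10 members, all genes of the sensor and eIF2 lists, the 3 largest rises and falls that passed in each other list (mean log2 CPM no lower than 1), and the 10 genes most like Hspa5. Motifs were searched in the RefSeq promoters (GRCm38.p6) with Python 3.11.15. The authors' own 1.5-fold rule was used as a second call rule. The edgeR p-values set the difference between the groups against the variation between libraries, which was estimated with the help of all genes tested. They cover these animals only.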

Additional observations from a re-analysis of the deposited data

Results flagged for a closer look

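Among the 67 genes named by rule, each group of 4 libraries was examined for a library whose gap to its nearest neighbour exceeded Dixon's critical share of the group's range, and 5 of 134 groups had one, where chance gives about 1 in 20. None of the 10 members was among them. Ero1l was at 68.3 CPM in WT 2, above the other WT libraries at 63.4 to 64.2 CPM, and Aars was at 12.4 CPM in WT 2, above 10.8 to 11.01 CPM. Herpud2 was at 131.7 CPM in WT 1, above the others at 120.01 to 120.4 CPM. Prkcsh was at 16.2 CPM in Cxcr2-/- 2, below 20.3 to 21.1 CPM, and Nupr1 was at 6.40 CPM in Cxcr2-/- 3, above 3.67 to 4.03 CPM.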

How the results depend on the processing

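With 5 members higher and 3 lower as the edgeR result, RLE and upper-quartile scaling, both other filters on low counts, protein-coding genes only, DESeq2 and the replicate block gave the same numbers, total-count scaling gave 4 and 3, and the covariate for B and plasma cell markers gave 7 and 3. Leaving out each library in turn gave 5 to 7 members higher and 3 lower each time, with 3426 to 3774 genes higher and 3062 to 3520 lower over all genes. Demanding a 1.5-fold change left 1 member higher and 2628 genes higher. The covariate for early precursor markers left 0 members higher (1 at an unadjusted p under 0.05, Xbp1) and 2 lower, and 1856 genes higher and 1635 lower (edgeR, adjusted p), and reversed the log2 fold changes of Calr (-0.20), Hsp90b1 (-0.048), Pdia6 (-0.30) and Pdia4 (-0.90). The cause was not tested, since the score and the genotype cannot be told apart. Upper-quartile scaling moved the median log2 fold change of all genes to -0.11 and gave 3076 genes higher and 4391 lower, where TMM gave 3969 and 3526. The log2 fold changes of the 8 called members kept their sign under each of the 17 settings other than the precursor covariate. Replicate numbers did not pair the libraries: same-numbered libraries had correlations of their deviations of 0.16, -0.02, 0.42 and -0.23 over 4226 genes, and the replicate block gave 3719 genes higher and 3349 lower. Counts of 148 to 392 per library limit the precision for Pdia4, and sequence shared with other genes was not resolved by the counting.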

Other observations

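Genes were also ranked by how closely their libraries varied with those of Hspa5. With 8 libraries and 4225 genes, high values of r also arise between unrelated genes, and the ranks were not tested. Likeness was Pearson's r of the deviations of log2 (CPM + 1) from the group mean over the 8 libraries, for the 4225 genes whose mean log2 CPM was no lower than 5, and it is a description over libraries that share their group means and depth. The 10 most alike were Scarb2, the lysosomal receptor for glucocerebrosidase (r = 0.97), Entpd1, the ectonucleotidase CD39 (0.95), Topors (0.93), Srsf7 (0.90), Man2a2 (0.90), Fem1c (0.90), Ccnd2 (0.90), Bbx (0.89), Il1rap (0.88) and Pde7b (0.88). Of these, 9 were lower in Cxcr2-/- neutrophils and Man2a2 was higher (edgeR, adjusted p under 0.05). Of all genes tested, 21.0% were lower and 23.7% higher, and the shares among the 4225 genes compared are not given here. Among the members, Calr ranked 185 (r = 0.61), Hsp90b1 364 (0.48), Canx 374 (0.47), Pdia3 588 (0.34), Xbp1 2269 (-0.27) and Atf4 2922 (-0.41). Ddit3, Pdia4 and Pdia6 had a mean log2 CPM under 5 and were not ranked. Of the pathway genes that fell, Ppp1r15a ranked 24 (0.83), Atf3 28 (0.82), Herpud1 52 (0.76) and Slc7a11 147 (0.65). The folding genes Hspa13 (rank 60, r = 0.75) and P4hb (rank 160, r = 0.63), named for their rank, did not pass the edgeR test.

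Calr4, a relative of calreticulin that holds an ERSE in its promoter, fell in Cxcr2-/- neutrophils (log2 fold change -3.35, edgeR adjusted p = 9.42e-07), and Calr did not pass. Calr4 was singled out after its value was seen.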
